A study of Homo sapiens with 16 samples.

Results

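The genes described here are 36 glycolysis and hypoxia genes: 22 glycolytic enzymes and transporters, and 14 other genes of the hypoxia response. They were chosen by symbol and not by their values, though with earlier results of these data known. All 36 were found among the 23340 genes of each of 3 expression tables. The cells were CCLP1, an established human cell line from a cholangiocarcinoma, a cancer of the bile ducts, grown in high-glucose medium with serum. The study asked how PRH, a homeodomain transcription factor encoded by HHEX, and the receptor NOTCH3 act on one another's genes in these cells. Polyadenylated RNA was sequenced in 16 libraries, 8 groups of 2. Experiment 1 compared 2 clones expressing an shRNA against HHEX with 2 clones expressing a non-targeting shRNA. Experiment 2 compared 2 infections with an adenovirus for myc-tagged PRH (here the PRH virus) with 2 infections with a control adenovirus, empty in the labels and AdGFP in the table's columns. Experiment 3 applied both viruses, 2 infections each, to a cell line with a NOTCH3 shRNA and to a line with the non-targeting shRNA, so all 8 of its libraries carried an shRNA and an adenovirus.

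Glycolysis breaks glucose down to pyruvate. Glucose enters through the transporters encoded by SLC2A1 and SLC2A3, and when pyruvate is reduced to lactate the monocarboxylate transporters encoded by SLC16A1 and SLC16A3 carry the lactate across the membrane. In low oxygen, the alpha subunits of the hypoxia-inducible factors (HIF), encoded by HIF1A and EPAS1, escape hydroxylation by the EGLN prolyl hydroxylases and the breakdown that follows. They then pair with ARNT, bind the core letters ACGTG or GCGTG, and raise many genes of glycolysis, of acid-base balance and of their own restraint. HIF alpha subunits are controlled largely at the protein level, which RNA does not show.

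The values are counts per gene that the authors divided by 1 size factor per library, here normalised counts, and each table was scaled separately. Levels are therefore compared within an experiment. The libraries of experiments 2 and 3 held 20795552 to 28037741 and 47257779 to 69899040 reads in genes, and the normalised totals of experiment 1 were 42160142 to 47688977. Genes were tested with limma on log2(normalised count + 1), and a fold change below is a difference on that scale with its standard error. A gene was called at a Benjamini-Hochberg adjusted p under 0.05 over all genes tested. With 2 libraries a group an exact permutation test cannot go below p = 0.333, so the calls lean on the spread shared across genes. CA9, a membrane carbonic anhydrase often used as a hypoxia marker, stood at 0 to 3.07 normalised counts in the 16 libraries and passed the filter on low values in none of the tables. EGLN3 did not pass it in experiment 2.

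The libraries labelled NOTCH3 shRNA stood apart from the control shRNA libraries of experiment 3. NOTCH3 itself stood at 655 and 1018 normalised counts in them with the empty virus, against 711 and 838 in the control shRNA libraries, and with the PRH virus at 761 and 1086 against 2295 and 2488, so with the empty virus the label was not borne out by its own transcript. All 8 biliary epithelial markers tested were higher in them; their summed normalised counts were 438649 to 505285, against 14242 to 14711 in control shRNA cells with the empty virus. KRT19, a bile duct keratin, stood at 51369.8 and 63763 against 11.3 and 55.4, and KRT7 at 257 and 169.9 against 0 and 0. The summed biliary markers were also low in experiment 2, at 1976 to 3370. The groups are therefore called by their labels only, and each comparison of labelled NOTCH3 with control shRNA libraries, the interaction included, is one between cells that differ in this whole profile. Each shRNA label was a single line, and its libraries were infections of that line. The standard errors and p-values of these comparisons therefore reflect the spread between infections and not between lines. Within the labelled NOTCH3 libraries 0 of the 8 biliary markers were called for the PRH virus with limma. Of the 8, 0 had an unadjusted p under 0.05.

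Calls among the 36 genes were most numerous where the PRH virus was given to control shRNA cells and where the labelled NOTCH3 libraries were set against the control shRNA libraries, as the map of fold changes shows. Of the 36, 27 were called in at least 1 of the 6 group comparisons, 8 were tested and called in none, and CA9 was not tested. Among all genes 27.0% were called for the PRH virus in control shRNA cells. Between the shRNA labels 51.9% were called with the empty virus and 47.2% with the PRH virus. The share of all genes called in at least 1 of the 6 was not counted, so the 27 cannot be read as a trait of these genes.

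**Figure D1:**
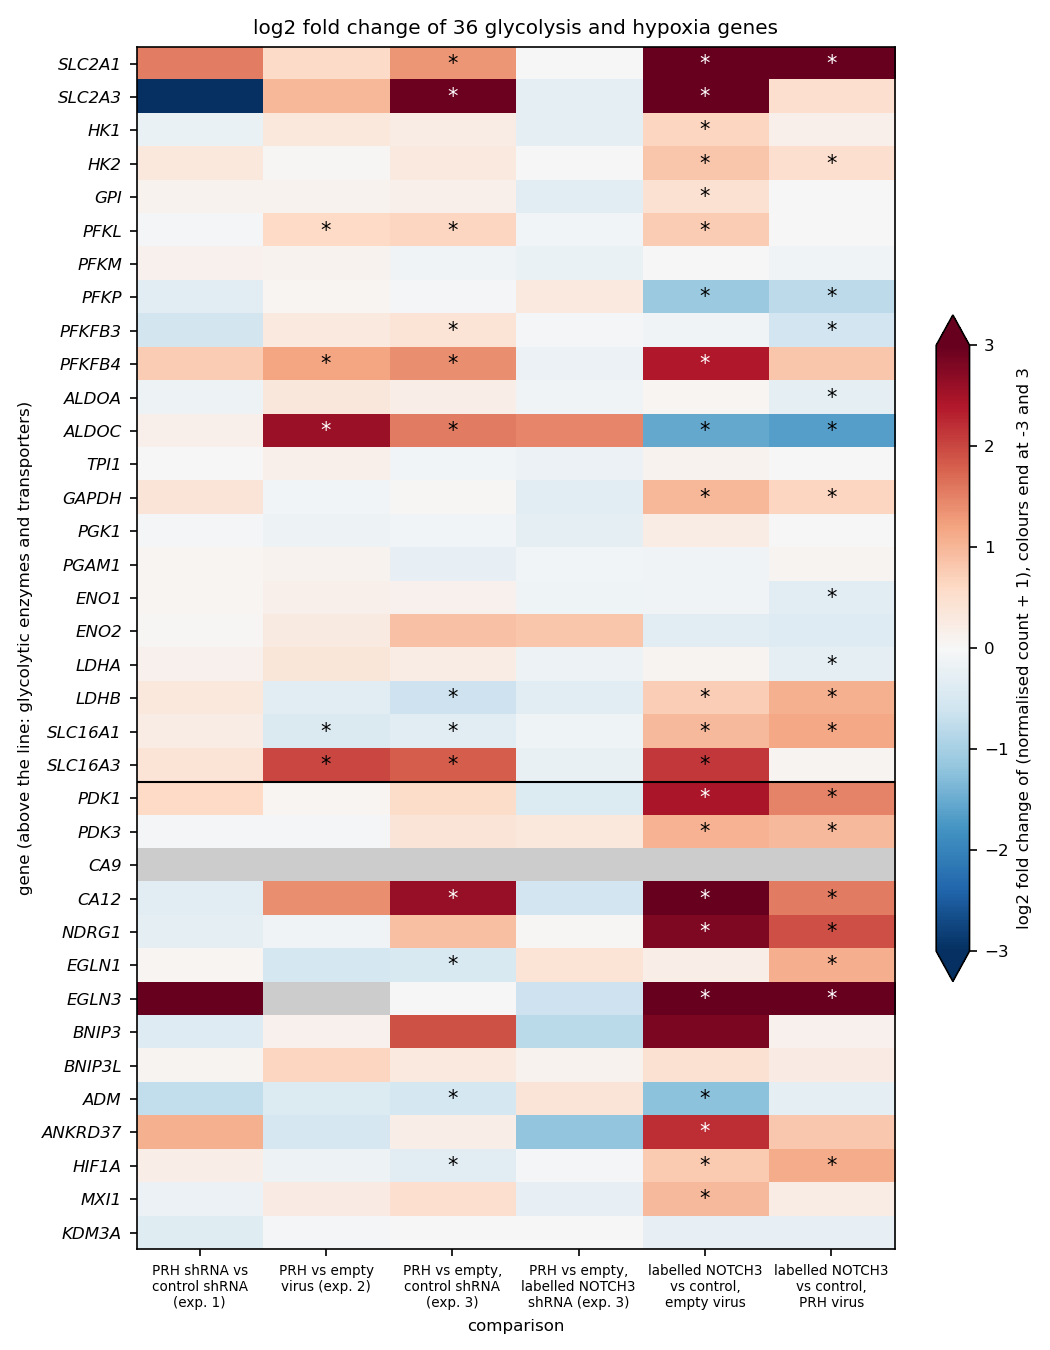
Log2 fold change of each of the 36 genes (rows) in the 6 group comparisons (columns), from blue (lower) to red (higher), with colours ending at -3 and 3. Stars mark an adjusted p under 0.05, grey cells were not tested, and the column of the PRH virus in libraries labelled NOTCH3 shRNA holds no star.

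A small group of glycolytic genes rose with the PRH virus in 2 experiments with no library in common. In experiment 2, 4 of 34 members tested rose and 1 fell, 14.7% against 15.6% called among all genes (9.90% higher and 5.73% lower). In the control shRNA cells of experiment 3, 8 of 35 rose and 5 fell, against 27.0% called among all genes (15.2% higher and 11.8% lower). The members' median log2 fold change was 0.13 and 0.23, and that of all genes -0.01 and 0. PFKL, PFKFB4, ALDOC and SLC16A3 rose and SLC16A1 fell in both. These are 5 of the 34 members tested in both, beside 1618 of 13148 genes called in both. Across members, 26 of 34 (76.5%) had the same direction in the 2 experiments, beside 10177 of 13148 genes tested in both (77.4%). HHEX itself went from 308 and 423 to 101992 and 69971 normalised counts in experiment 2 and from 613 and 715 to 228979.8 and 330421 in control shRNA cells; the counts do not tell the viral transcript from the cell's own.

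At the point of lactate exchange the pair of transporters moved in opposite directions. SLC16A3, which encodes the lactate exporter MCT4, stood at 277 and 291 normalised counts with the empty virus and 1173 and 1111 with the PRH virus in experiment 2, a log2 fold change of 2.00 ± 0.13 (adjusted p = 0.0015). In control shRNA cells it stood at 741 and 544 with the empty virus and 2157 and 2352 with the PRH virus (1.82 ± 0.19, adjusted p = 0.000193). The groups did not overlap in either experiment, and this call held under every alternative run. SLC16A1, which encodes MCT1, a carrier that works in both directions, fell from 6532 and 5579 to 4429.7 and 4478 in experiment 2 (-0.44 ± 0.11, adjusted p = 0.0402). It fell from 17249 and 17536 to 13848 and 13882 in control shRNA cells (-0.33 ± 0.08, adjusted p = 0.0119). The smaller SLC16A1 change was fragile: its call was lost in 6 of 11 alternatives in experiment 2 and in 4 of 12 in control shRNA cells. Scaling libraries to equal totals in place of the deposited size factors lost it in both, as did leaving out some single libraries. The log2 fold change of SLC16A1 was -0.55 to -0.32 over the alternatives in experiment 2 and -0.35 to -0.22 in control shRNA cells. Within a library, where the size factor cancels, the log2 ratio of SLC16A3 to SLC16A1 went from -4.55 and -4.25 to -1.92 and -2.01 in experiment 2 and from -4.54 and -5.01 to -2.68 and -2.56 in control shRNA cells.

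Lactate dehydrogenase is a tetramer of A and B subunits, of which the A form is the one raised by HIF. LDHB fell in control shRNA cells, from 36606 and 35474 to 23601 and 22909 normalised counts (-0.63 ± 0.09, adjusted p = 0.000836), a call that held under every alternative run. In experiment 2 LDHB stood at 13094 and 15117 with the empty virus and 10281 and 12106 with the PRH virus, a difference of -0.33 ± 0.13 that was not called (adjusted p = 0.131). LDHA was called in neither, at 0.36 ± 0.12 (19963 and 19494 against 27145 and 23742, adjusted p = 0.0833) and 0.23 ± 0.10 (69481 and 60721 against 78512 and 73980.0, adjusted p = 0.11). The log2 ratio of LDHA to LDHB within a library did not overlap between the groups, with 0.61 and 0.37 against 1.40 and 0.97 in experiment 2 and 0.92 and 0.78 against 1.73 and 1.69 in control shRNA cells.

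**Figure D2:**
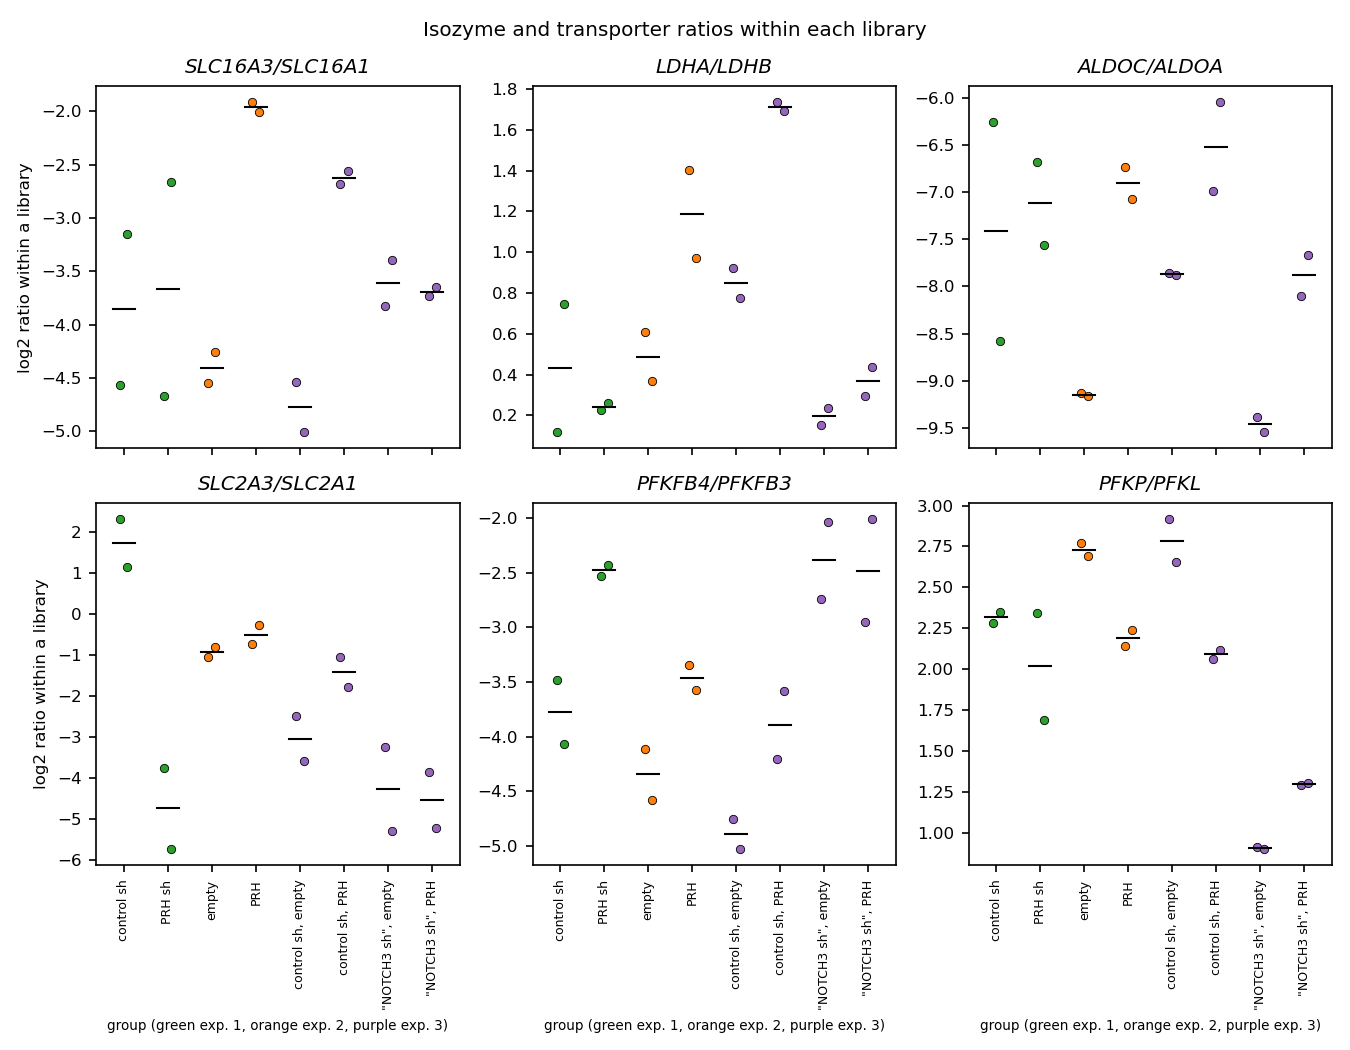
Log2 ratio of 2 isozymes or transporters within each library (points) with the mean of each group (bars), for 6 pairs across the 8 groups; ratios are of normalised counts and not per transcript length, so only shifts between groups can be read. SLC16A3/SLC16A1 and LDHA/LDHB were higher with the PRH virus in experiment 2 and in control shRNA cells of experiment 3.

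Aldolase splits the phosphorylated sugar in the middle of the pathway, and ALDOC encodes the form best known from brain. ALDOC rose most of the glycolytic genes in experiment 2, from 55 and 62 normalised counts to 409 and 309 (2.58 ± 0.23, adjusted p = 0.00268). In control shRNA cells it rose from 284 and 310.0 to 645 and 1195 (1.56 ± 0.34, adjusted p = 0.00922). The groups did not overlap. That second call was lost without control shRNA empty virus library A (adjusted p = 0.0583) or PRH virus library B (adjusted p = 0.0795). ALDOA, the widespread form, was called in neither, at 0.34 ± 0.13 (31473 and 36166 against 43619.5 and 41732, adjusted p = 0.126) and 0.21 ± 0.10 (66068 and 73439 against 82057 and 79129.7, adjusted p = 0.15).

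The control points around fructose 6-phosphate also rose. PFKL, the liver form of phosphofructokinase, rose from 2542 and 2976 to 4177 and 4168 normalised counts in experiment 2 (0.60 ± 0.11, adjusted p = 0.0155) and from 5832 and 7214 to 10397 and 9909 in control shRNA cells (0.65 ± 0.12, adjusted p = 0.00471). The platelet form PFKP and the muscle form PFKM were called in neither: PFKP stood at 17369 and 19210.3 against 18455 and 19673, and at 44042 and 45442 against 43539.5 and 43072. The log2 ratio of PFKP to PFKL was lower with the PRH virus, going from 2.77 and 2.69 to 2.14 and 2.24 and from 2.92 and 2.66 to 2.07 and 2.12. PFKFB4, which makes the phosphofructokinase activator fructose 2,6-bisphosphate and can also remove it, rose from 91.3 and 85.3 to 203 and 199.7 (1.18 ± 0.20, adjusted p = 0.0125) and from 155 and 128 to 309 and 444 (1.39 ± 0.36, adjusted p = 0.0198). PFKFB3, the related enzyme with mostly synthetic activity, rose in control shRNA cells from 4192 and 4195 to 5727 and 5336 (0.40 ± 0.10, adjusted p = 0.0158); in experiment 2 it was at 1591 and 2062 against 2075 and 2388 (0.30 ± 0.15, adjusted p = 0.231). In control shRNA cells the call of PFKFB4 was lost without empty virus library A, empty virus library B or PRH virus library B (adjusted p = 0.0617, 0.101 and 0.129), and that of PFKFB3 without empty virus library A, empty virus library B or PRH virus library A (adjusted p = 0.0866, 0.0798 and 0.0885).

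Both glucose transporters rose in control shRNA cells. SLC2A1, the widespread transporter GLUT1, went from 767 and 881 to 2102 and 2012 normalised counts (1.32 ± 0.12, adjusted p = 9.3e-05). SLC2A3, the high-affinity transporter GLUT3, went from 137 and 72.4 to 1014 and 585 (2.94 ± 0.71, adjusted p = 0.0142). Its call was lost without empty virus library B or PRH virus library A (adjusted p = 0.0974 and 0.091). In experiment 2 neither was called: SLC2A1 stood at 248 and 329 against 425 and 426 (0.57 ± 0.18, adjusted p = 0.0822) and SLC2A3 at 119 and 189 against 255 and 353 (0.99 ± 0.28, adjusted p = 0.056). The groups did not overlap for either gene there.

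Promoters are shown for the 3 members with the largest rise that was called in both experiments, as the 250 bases before the start, from RefSeq on GRCh38.p14; the files themselves use hg19. Capitals mark ACGTG read on either strand, and CACGTG where 2 such matches overlap in the E-box palindrome. ALDOC held a CACGTG and a second ACGTG, 1 of the 5 starts listed for SLC16A3 held 2 ACGTG, and PFKFB4 held none in this window. The other core, GCGTG, stood 2 times in the ALDOC window, 1 time in that of PFKFB4 and not in the SLC16A3 window shown.
ALDOC (chr17:28576896-28577145, minus strand): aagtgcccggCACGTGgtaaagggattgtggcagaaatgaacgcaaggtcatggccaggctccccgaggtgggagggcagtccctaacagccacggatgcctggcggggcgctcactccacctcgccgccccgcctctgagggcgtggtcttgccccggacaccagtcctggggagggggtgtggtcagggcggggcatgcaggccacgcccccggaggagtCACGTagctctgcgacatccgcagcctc
SLC16A3 (chr17:82228792-82229041, plus strand): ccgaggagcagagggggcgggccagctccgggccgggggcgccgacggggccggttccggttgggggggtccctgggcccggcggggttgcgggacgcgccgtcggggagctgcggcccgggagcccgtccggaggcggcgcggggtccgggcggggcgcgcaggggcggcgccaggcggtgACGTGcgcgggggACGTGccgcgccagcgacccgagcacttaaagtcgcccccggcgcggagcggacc
PFKFB4 (chr3:48556804-48557053, minus strand): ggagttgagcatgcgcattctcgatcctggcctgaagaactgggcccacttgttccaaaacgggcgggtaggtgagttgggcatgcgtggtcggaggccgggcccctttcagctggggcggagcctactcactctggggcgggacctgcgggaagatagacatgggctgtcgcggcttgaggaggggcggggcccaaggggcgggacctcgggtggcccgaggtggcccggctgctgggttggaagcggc
Promoters of 32 of the 36 members were read. ACGTG stood in 20 of 32 (62.5%), against 5935 of the 27305 genes with a listed promoter (21.7%), and per start in 23 of 62 (37.1%) against 18.5%. The members were picked as glycolysis and hypoxia genes, so this excess is not independent of that choice. GCGTG stood in 19 of 32 (59.4%) against 36.2%, and per start in 23 of 62 (37.1%) against 32.2%. Members had more starts listed per gene, which raises their share per gene. A match describes the letters of the window and is no sign of binding in these cells.

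Among the 14 other hypoxia genes, 0 of 12 tested were called in experiment 2 with limma, where 3 had an unadjusted p under 0.05. In control shRNA cells 1 of 13 rose and 3 fell, 30.8% against 27.0% of all genes, and their median was 0.29. The 13 include EGLN3, which was at 0 in every one of these libraries. CA12, a membrane carbonic anhydrase, rose in control shRNA cells from 14.3 and 13.6 to 96.2 and 85 normalised counts (2.61 ± 0.37, adjusted p = 0.00102), while in experiment 2 it stood at 31.6 and 27.7 against 119.7 and 52.1 (1.39 ± 0.43, adjusted p = 0.0742). HIF1A, EGLN1 and ADM fell in control shRNA cells. HIF1A went from 6094 and 5918 to 4988 and 4443 (-0.35 ± 0.10, adjusted p = 0.0308). EGLN1, the main HIF prolyl hydroxylase, went from 4910.2 and 4788 to 3889 and 3209 (-0.46 ± 0.13, adjusted p = 0.0313). ADM, which encodes the vasodilator peptide adrenomedullin, went from 5092 and 5514 to 4109.6 and 3246 (-0.54 ± 0.14, adjusted p = 0.0211). In experiment 2 the same genes were lower with the PRH virus and were not called (HIF1A -0.16, EGLN1 -0.52 and ADM -0.40). These 3 calls were among the least firm: each was lost without empty virus library A, empty virus library B or PRH virus library B, with adjusted p from 0.0725 (ADM without library A) to 0.195 (EGLN1 without PRH virus library B).

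The other members tested and not called ranged from -0.52 to 1.39 on the log2 scale in experiment 2 (29 genes) and from -0.25 to 1.90 in control shRNA cells (22 genes). The count of members called in control shRNA cells rested on both libraries of a group: it was 7, 6 and 8 in place of 13 without empty virus library A, empty virus library B and PRH virus library B. With the 4 libraries of this comparison alone, and thus without the labelled NOTCH3 libraries, it was 17 (11 higher and 6 lower). In experiment 2 it was 8 in place of 5 without PRH virus library B. With libraries scaled to equal totals in place of the deposited size factors, 13 members were higher and 2 lower in control shRNA cells, the median of all genes moved from 0 to 0.10, and HIF1A, EGLN1 and SLC16A1 were no longer called. Biliary markers moved here too: of 8, KRT19, EPCAM and SOX9 fell and KRT7 and KRT18 rose, and their summed counts went from 14711 and 14242 to 7982 and 5508. Of 6 mesenchymal markers tested COL1A1 and THY1 rose and VIM and COL1A2 fell, and the sum of the 8 went from 650294 and 618105 to 407903 and 352069. In experiment 2 the biliary sum went from 3370 and 2911 to 2228 and 1976, with SOX9 lower, and the mesenchymal sum from 327590 and 338945 to 272141 and 302797, with COL1A1 and THY1 higher. The part of these markers in the results was not tested. Fewer cells of a type and less RNA per cell cannot be told apart in bulk RNA.

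**Figure D3:**
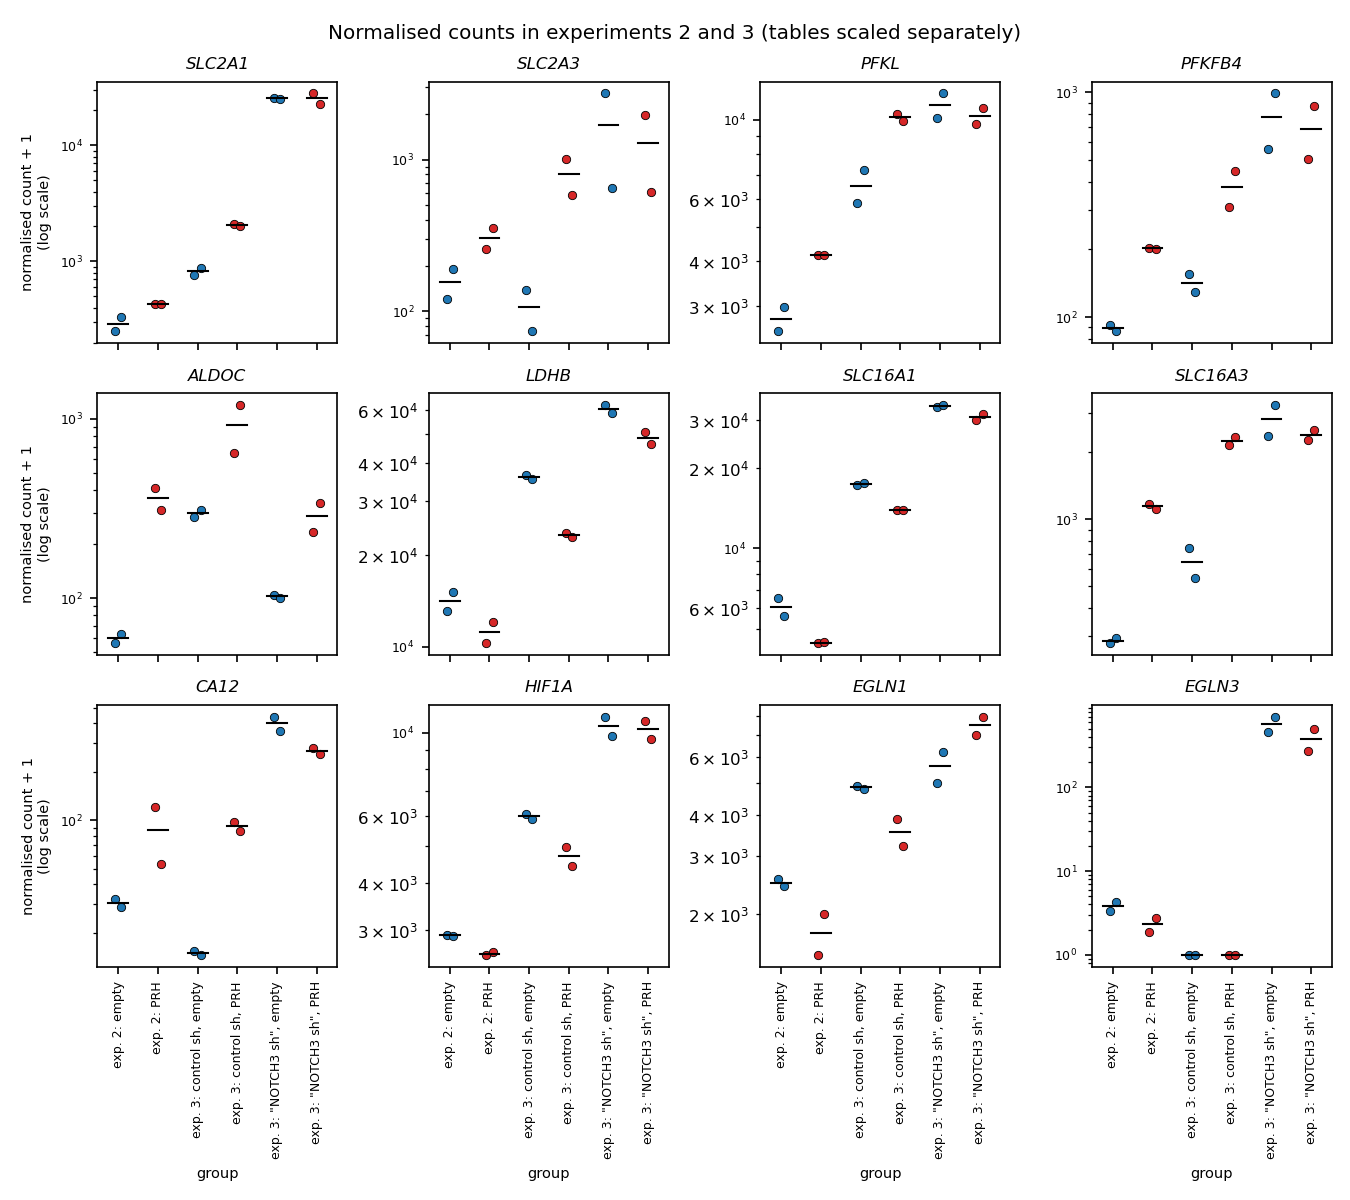
Normalised counts plus 1 (log scale) of 12 genes in each library (points) with group means (bars), empty virus in blue and PRH virus in red, in experiments 2 and 3; the tables were scaled separately, so levels compare within an experiment only. SLC16A3 lay at 277 to 291 with the empty virus and 1111 to 1173 with the PRH virus in experiment 2, and EGLN3 was at 0 in all 4 control shRNA libraries of experiment 3.

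Further genes of the pathway were read from lists beside the 36. Of 28 further HIF targets, 6 rose and 2 fell in experiment 2 and 11 rose and 2 fell in control shRNA cells, 28.6% and 46.4% against 15.6% and 27.0% of all genes. LOXL2, a collagen crosslinking enzyme, rose in both (1.42 and 2.18), as did BHLHE40, a transcriptional repressor (0.95 and 1.09), while P4HA1, a collagen prolyl hydroxylase subunit, fell in both (-0.48 and -0.72). P4HA2, its relative, rose in control shRNA cells, from 760.5 and 696 to 1995 and 2125 (adjusted p = 4.09e-05). Of the HIF machinery 2 of 13 fell in experiment 2, and 2 of 14 fell and 1 rose in control shRNA cells, 15.4% and 21.4%, at or below the shares of all genes. CITED2, which competes with HIF for the coactivator p300, fell from 6578 and 5584 to 3285 and 3594 (-0.82 ± 0.12, adjusted p = 0.00722) and from 12529 and 10712 to 5014 and 4112 (-1.35 ± 0.13, adjusted p = 0.000162).

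Among 11 regulators of glycolytic genes outside the HIF system, 1 of 8 tested was called in experiment 2 (12.5%, against 15.6% of all genes) and 3 of 11 in control shRNA cells (27.3%, against 27.0%), shares near those of all genes. MLXIPL encodes the glucose-responsive transcription factor ChREBP. It went from 4.68 and 2.22 normalised counts to 51.4 and 16.5 in experiment 2 (2.82 ± 0.68, adjusted p = 0.0347). There MLXIPL passed the filter on low values only through the PRH virus libraries, in which it was higher. In control shRNA cells it went from 4.1 and 0 to 246 and 194 (6.60 ± 0.74, adjusted p = 0.000306). TXNIP, a target of such factors that restrains glucose uptake, went from 8.2 and 2.26 to 69.8 and 59.9 there (3.58 ± 0.49, adjusted p = 0.000813) and was not tested in experiment 2, where it was at 8.86 or less.

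In the libraries labelled NOTCH3 shRNA the PRH virus moved none of the members past the threshold. HHEX rose from 209 and 187 to 71911 and 46576 normalised counts, and 0 of 35 members were called with limma. With the PRH virus HHEX RNA was lower here than in control shRNA cells given that virus, where its mean was 279700 (log2 fold change -2.25, called lower). The part of this difference in the results was not tested, and it cannot be told apart from the shRNA label. Among all genes 2.21% were called (1.90% higher and 0.309% lower), a share too small for 0 calls to set the members apart. An unadjusted p under 0.05 was found for 12 of 35 members, beside 2736 of 15836 genes. A log2 fold change above 0 was found for 8 of 35 members, beside 7628 of 15836 genes. The members' median was -0.14, and that of all genes -0.01. With edgeR 1 member was called and with DESeq2 4. SLC16A3 stood at 2376 and 3255 with the empty virus and 2264 and 2513 with the PRH virus (-0.22 ± 0.19, adjusted p = 0.595), and SLC2A1 at 25711 and 25266 against 28041 and 22666 (-0.02 ± 0.12, adjusted p = 0.97). The groups overlapped for SLC2A1 and SLC16A3. In ALDOC and ANKRD37 the difference was beyond 1 on the log2 scale without overlap and was not called. ALDOC stood at 103 and 99.2 with the empty virus and 232 and 339 with the PRH virus (1.46 ± 0.34, adjusted p = 0.0672). ANKRD37 stood at 119 and 184 against 60.9 and 68 (-1.18 ± 0.58, adjusted p = 0.334). ENO2, the neuronal enolase, showed 0.84 ± 0.32 there (1303 and 2521 against 2663 and 3953, adjusted p = 0.215) and 0.88 ± 0.32 in control shRNA cells (1875 and 2833 against 3809 and 4752, adjusted p = 0.0678); neither was called.

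The difference between the 2 effects of the PRH virus was itself called for 7 of 35 members, 2 higher and 5 lower, against 8.39% of all genes (3.48% higher and 4.91% lower). The log2 effect was lower in the labelled NOTCH3 libraries by -2.05 ± 0.27 for SLC16A3 (adjusted p = 0.0024), -1.34 ± 0.17 for SLC2A1 (adjusted p = 0.0018) and -3.18 ± 0.52 for CA12 (adjusted p = 0.00682). For these genes the libraries labelled NOTCH3 shRNA already stood above the control shRNA libraries with the empty virus. CA12 stood at 439 and 359 with the empty virus and 279 and 258 with the PRH virus in them. PFKL (-0.74 ± 0.17) and GPI (-0.48 ± 0.12), which encodes glucose phosphate isomerase, were lower by less, the GPI call being lost in 12 of 15 alternatives, and EGLN1 (0.88 ± 0.19) and ADM (0.93 ± 0.20) were higher. Without single libraries the count fell to between 3 and 6: it was 3 without control shRNA empty virus library A, control shRNA PRH virus library B or labelled NOTCH3 PRH virus library A, and 4 without control shRNA empty virus library B or labelled NOTCH3 PRH virus library B. SLC16A3, SLC2A1 and CA12 were called under each of these. ALDOC gave no such difference (-0.10 ± 0.48, adjusted p = 0.933), an estimate too wide to show equal effects. With the PRH virus the labelled NOTCH3 libraries also held less HHEX RNA than the control shRNA libraries. The part of that in these differences was not tested.

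Set against the control shRNA libraries, the libraries labelled NOTCH3 shRNA held more SLC2A1, SLC16A1, LDHB, EGLN3, PDK1 and CA12 RNA under both viruses, and more SLC2A3 and SLC16A3 RNA by the test with the empty virus. With the empty virus 19 of 35 members were higher and 3 lower, against 51.9% of all genes called (28.9% higher and 23.1% lower), with a member median of 0.74 and 0.04 for all genes. With the PRH virus 12 were higher and 6 lower, against 47.2% (26.1% higher and 21.1% lower), with medians of 0.15 and 0.04. Of the 14 other hypoxia genes, 8 of 13 tested were higher and 1 lower with the empty virus (median 1.04), and 7 higher and none lower with the PRH virus (median 0.98). Of the 22 glycolytic genes 11 were higher and 2 lower with the empty virus (median 0.34), and 5 higher and 6 lower with the PRH virus (median 0.02). The whole profile of these libraries differed, as set out above, and biliary and mesenchymal markers moved with every result of this kind. The summed mesenchymal markers were 150506 to 189432 with the empty virus, against 618105 to 650294. Of 6 mesenchymal markers tested, 2 were higher and 4 lower with the empty virus. With the PRH virus 1 was higher and 4 lower. The part of the biliary and mesenchymal markers was not tested.

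SLC2A1 showed the largest difference among the glycolytic genes, with 25711 and 25266 normalised counts in libraries labelled NOTCH3 shRNA against 767 and 881 (4.95 ± 0.12, adjusted p = 1.24e-08). With the PRH virus it stood at 28041 and 22666 against 2102 and 2012 (3.61 ± 0.12, adjusted p = 1.04e-07). SLC2A3 was higher with the empty virus, at 2739 and 645 against 137 and 72.4 (3.72 ± 0.71, adjusted p = 0.00173), and the labelled NOTCH3 libraries differed widely among themselves. With the PRH virus SLC2A3 overlapped between the groups, at 1966 and 613 against 1014 and 585.

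Both lactate carriers were higher with the empty virus, and with the PRH virus SLC16A1 alone of the pair was called. SLC16A1 was higher under both viruses, at 33711 and 34204 against 17249 and 17536 (0.97 ± 0.08, adjusted p = 6.93e-06) and at 30087 and 31567 against 13848 and 13882 (1.15 ± 0.08, adjusted p = 4.08e-06). SLC16A3 was higher with the empty virus (2.13 ± 0.19, adjusted p = 1.46e-05) and differed little with the PRH virus, at 2264 and 2513 against 2157 and 2352 (0.08 ± 0.19, adjusted p = 0.746). LDHB was higher under both, at 62101 and 58588 against 36606 and 35474 (0.74 ± 0.09) and at 50635 and 46196 against 23601 and 22909 (1.06 ± 0.09). LDHA was not called with the empty virus (68986 and 69099.9 against 69481 and 60721) and was lower with the PRH virus, at 62091 and 62626 against 78512 and 73980.0 (-0.29 ± 0.10, adjusted p = 0.0335). That call of LDHA, with those of ALDOA (-0.28 ± 0.10) and ENO1 (-0.35 ± 0.11), was lost without 1 library: without labelled NOTCH3 PRH virus library B the adjusted p was 0.125, 0.0883 and 0.221, and without library A 0.134, 0.221 and 0.0527; without control shRNA PRH virus library A it was 0.12, 0.125 and 0.088, and without library B ALDOA was at 0.0753.

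In the upper pathway the isozymes shifted. PFKP was lower under both viruses, at 19037 and 22220.0 against 44042 and 45442 (-1.12 ± 0.10, adjusted p = 1.49e-05) and at 23929 and 26701 against 43539.5 and 43072 (-0.78 ± 0.10). PFKL was higher with the empty virus, at 10084 and 11859 against 5832 and 7214 (0.75 ± 0.12, adjusted p = 0.000692). The log2 ratio of PFKP to PFKL was 0.92 and 0.91 in the labelled NOTCH3 libraries with the empty virus, against 2.92 and 2.66. PFKFB4 was higher with the empty virus, at 558 and 988 against 155 and 128 (2.39 ± 0.36, adjusted p = 0.00043), and with the PRH virus stood at 507 and 866 against 309 and 444 (0.84 ± 0.36, adjusted p = 0.0854). ALDOC was lower under both, at 103 and 99.2 against 284 and 310.0 (-1.54 ± 0.34) and at 232 and 339 against 645 and 1195 (-1.64 ± 0.34). GAPDH, a common reference gene for RNA assays, was higher by 0.99 ± 0.11 and 0.63 ± 0.11, at 209619 and 188597 against 95699 and 104392 with the empty virus. HK1 and HK2, the hexokinases that trap glucose in the cell, were higher by 0.65 ± 0.10 and 0.82 ± 0.12 with the empty virus, as was GPI by 0.46 ± 0.09. HK2 stayed higher with the PRH virus (0.51 ± 0.12, adjusted p = 0.00597), and PFKFB3 was lower there (-0.58 ± 0.10).

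EGLN3, a HIF prolyl hydroxylase that HIF itself induces, had the largest difference among the members tested. It passed the filter on low values only through the labelled NOTCH3 libraries, and its calls are among those counted above. It stood at 0 in all 4 control shRNA libraries and at 456 and 698 normalised counts in the labelled NOTCH3 libraries with the empty virus and 269 and 491 with the PRH virus. Against a floor of 3 counts per library it was at least 178-fold higher with the empty virus and at least 139-fold higher with the PRH virus. CA12 was higher at 439 and 359 against 14.3 and 13.6 (4.73 ± 0.37, adjusted p = 6.93e-06), and at 279 and 258 against 96.2 and 85 with the PRH virus (1.56 ± 0.37, adjusted p = 0.00718). PDK1, a kinase that shuts pyruvate out of the mitochondrial oxidation route, stood at 1351 and 2321 against 300.3 and 349.6 (2.45 ± 0.26, adjusted p = 4.45e-05) and at 1161 and 1516 against 467 and 478 (1.49 ± 0.26, adjusted p = 0.00127). Its relative PDK3 was higher by 1.04 ± 0.22 (1956 and 2776 against 1039 and 1235) and by 0.98 ± 0.22 (2546 and 3355 against 1275 and 1723), the latter lost without labelled NOTCH3 PRH virus library B (adjusted p = 0.056).

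The remaining hypoxia genes that differed did so in the same direction, apart from ADM. NDRG1, a stress-induced gene, stood at 994 and 2092 against 184 and 227 (2.81 ± 0.33, adjusted p = 9.37e-05) and at 1256 and 1741 against 347 and 423 (1.94 ± 0.33). ANKRD37, a small HIF target, stood at 119 and 184 against 35.9 and 27.2 (2.21 ± 0.58, adjusted p = 0.0105); this call was lost without control shRNA empty virus library B (adjusted p = 0.0565) or labelled NOTCH3 empty virus library B (adjusted p = 0.0647). HIF1A was higher under both viruses, at 11028 and 9782 against 6094 and 5918 (0.79 ± 0.10) and at 10772 and 9646 against 4988 and 4443 (1.11 ± 0.10). MXI1, a MYC antagonist, was higher with the empty virus (0.97 ± 0.21). EGLN1 was higher with the PRH virus, at 7014 and 7959 against 3889 and 3209 (1.08 ± 0.13, adjusted p = 0.000166); with the empty virus it stood at 5019 and 6225 against 4910.2 and 4788 (0.21 ± 0.13, adjusted p = 0.225). ADM was lower with the empty virus, at 2401 and 2156 against 5092 and 5514 (-1.22 ± 0.14, adjusted p = 8.21e-05), and stood at 3289 and 2710.3 against 4109.6 and 3246 with the PRH virus.

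Promoters of 3 of these feedback and target genes are shown because they differ in the letters that HIF reads, in the same 250-base window and notation. ANKRD37 held a CACGTG and a second ACGTG, 1 of the 2 starts listed for PDK1 held 2 ACGTG close to the start, and EGLN3 held none. GCGTG stood in none of these 3 windows.
ANKRD37 (chr4:185396591-185396840, plus strand): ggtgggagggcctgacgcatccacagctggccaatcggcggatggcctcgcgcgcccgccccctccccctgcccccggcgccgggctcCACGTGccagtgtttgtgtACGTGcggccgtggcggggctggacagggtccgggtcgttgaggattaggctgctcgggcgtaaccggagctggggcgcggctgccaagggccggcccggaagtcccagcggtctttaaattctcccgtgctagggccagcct
PDK1 (chr2:172555840-172556089, plus strand): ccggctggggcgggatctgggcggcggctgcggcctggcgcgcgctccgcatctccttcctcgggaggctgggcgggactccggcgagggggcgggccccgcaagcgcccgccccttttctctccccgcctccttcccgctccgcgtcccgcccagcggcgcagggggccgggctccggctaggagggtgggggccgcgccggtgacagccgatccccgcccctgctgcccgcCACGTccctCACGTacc
EGLN3 (chr14:33951075-33951324, minus strand): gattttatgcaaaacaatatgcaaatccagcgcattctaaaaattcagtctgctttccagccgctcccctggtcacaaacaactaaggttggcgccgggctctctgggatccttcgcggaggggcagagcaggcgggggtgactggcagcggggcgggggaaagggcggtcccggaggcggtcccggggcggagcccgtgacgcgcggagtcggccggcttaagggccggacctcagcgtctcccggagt

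Of the HIF machinery, 4 of 14 genes were higher and 3 lower with the empty virus, 50% against 51.9% of all genes. EPAS1, which encodes HIF-2 alpha, stood at 3238 and 2458 normalised counts in libraries labelled NOTCH3 shRNA against 12.3 and 0 (9.60 ± 1.02, adjusted p = 4.69e-05). With the PRH virus it stood at 2633 and 2136 against 11.9 and 42.5 (6.64 ± 1.02, adjusted p = 0.000628). ARNT, the partner of both alpha subunits, was lower, at 3228 and 3509 against 5262 and 5335 (-0.65 ± 0.09, adjusted p = 0.000301). Of 28 further HIF targets 10 were higher and 4 lower with the empty virus (50%, against 51.9% of all genes) and 10 higher and 6 lower with the PRH virus (57.1%, against 47.2%). VEGFA, the vascular growth factor, stood at 5411 and 5574 against 1439 and 1996 (1.70 ± 0.15). The regulator TXNIP stood at 1897 and 2205 against 8.2 and 2.26 (8.54 ± 0.49, adjusted p = 1.14e-06), and ARRDC4, its relative, at 1459.6 and 1209.7 against 35.9 and 9.05 (6.11 ± 0.59).

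In the PRH knockdown 1 member stood far apart between the groups without a call. HHEX stood at 314 and 326 normalised counts in the PRH shRNA clones against 580.1 and 554 in the control clones (-0.82 ± 0.49, adjusted p = 1). With limma 0 of 35 members were called, against 0% of the 14511 genes tested; 2 members and 959 genes had an unadjusted p under 0.05. SLC2A3 stood at 91.1 and 151 in the PRH shRNA clones against 3337 and 3851 in the control clones (-4.92 ± 0.51, adjusted p = 0.165). The groups did not overlap, and over 9 alternatives the log2 fold change of SLC2A3 was -5.28 to -4.57. EGLN3 stood at 26 and 94.1 against 9.51 and 1.91 (3.20 ± 1.09, adjusted p = 0.539).

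SLC2A1 overlapped between the groups, with 1239.9 and 7939 normalised counts in the PRH shRNA clones against 669 and 1725 (1.55 ± 0.98). Its log2 fold change was 0.21 to 2.88 over 9 alternatives. A fit without 1 clone leaves a group of 1 library with no spread of its own, so calls from such fits lend these genes no support. Within a library the log2 ratio of SLC2A3 to SLC2A1 was 2.32 and 1.16 in the control clones and -3.75 and -5.71 in the PRH shRNA clones. The log2 ratio of PFKFB4 to PFKFB3 was -3.48 and -4.07 in the control clones and -2.53 and -2.43 in the PRH shRNA clones. PFKFB4 itself stood at 356 and 574 against 249 and 287 (0.76 ± 0.55) and ANKRD37 at 27.5 and 64.4 against 17.6 and 21.9 (1.06 ± 0.80); neither was called.

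Clones of experiment 1 also differed in epithelial markers. The summed biliary markers were 30394 and 145034 in PRH shRNA clones 1 and 2 and 8491 and 12464 in the control clones, with 0 of the 8 called and 7 at an unadjusted p under 0.05. Of 216 genes at 100 or more normalised counts in all 4 labelled NOTCH3 libraries and at 5 or fewer in all 4 control shRNA libraries of experiment 3, 198 and 216 reached 10 in the PRH shRNA clones and 109 and 55 in the control clones. In experiment 2 between 12 and 15 did. The part of this profile in the SLC2A3, SLC2A1 and EGLN3 values was not tested.

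**Figure D4:**
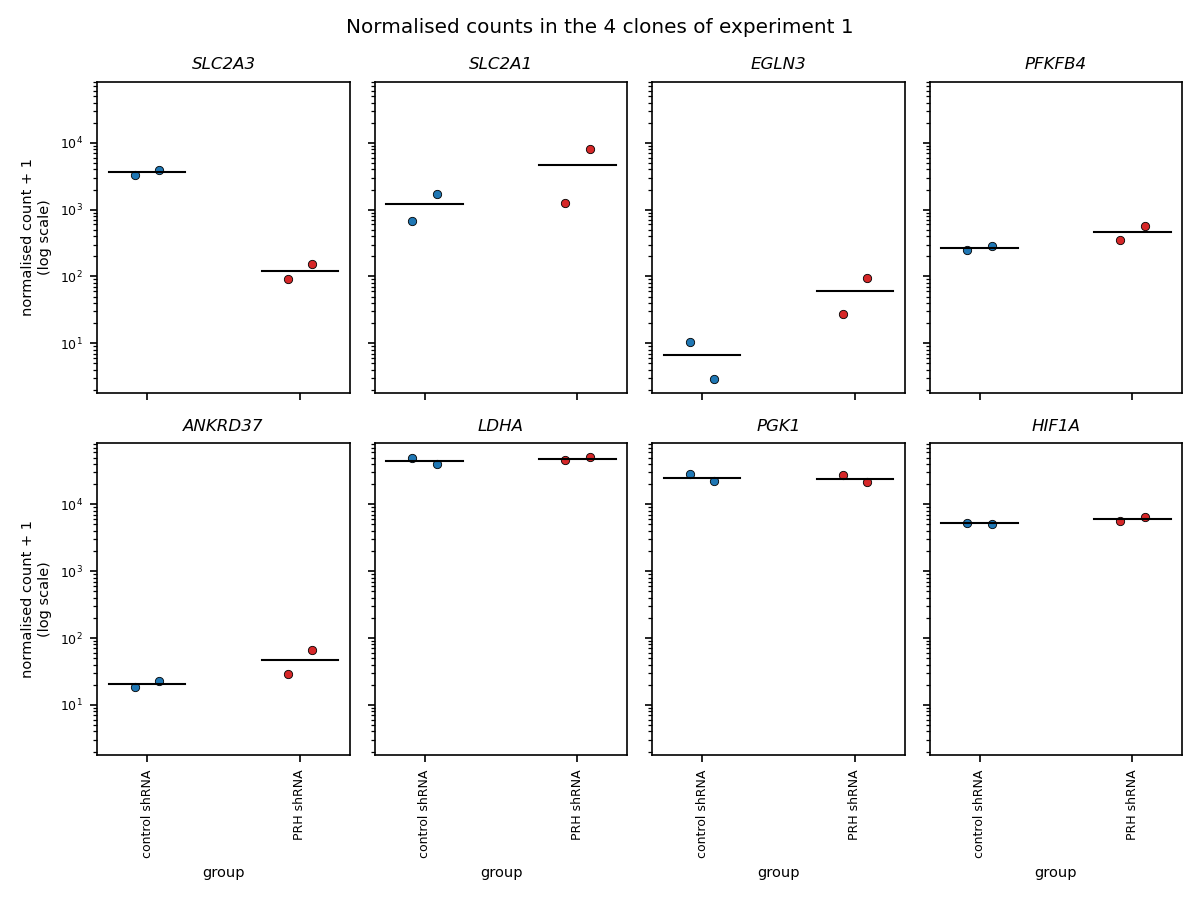
Normalised counts plus 1 (shared log scale) of 8 genes in each of the 4 clones of experiment 1 (points) with group means (bars), control shRNA in blue and PRH shRNA in red. SLC2A3 lay at 3337 and 3851 in the control clones and at 91.1 and 151 in the PRH shRNA clones, while LDHA, PGK1 and HIF1A differed by less than 1 on the log2 scale.

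In no comparison was a call made for 8 of the members tested. TPI1, PGK1 and PGAM1, enzymes of the lower pathway, had log2 fold changes of -0.18 to 0.16, -0.27 to 0.21 and -0.25 to 0.12 over the 6 comparisons, and PFKM had -0.20 to 0.14. KDM3A, a histone demethylase induced in hypoxia, had -0.36 to 0.00 and BNIP3L, a mitophagy receptor, 0.09 to 0.65. ENO2 ranged from -0.39 to 0.88. BNIP3, the relative of BNIP3L, had the widest range, -0.80 to 2.83, on 1.13 to 52.5 normalised counts. Pseudogenes named after a member are annotated for 15 of the 36, with 62 for GAPDH, 39 for BNIP3 and 13 for PGAM1, so reads may be shared between copies and these counts are less certain.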

How the data were processed

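The 3 tables hold the authors' signal values: gene counts divided by size factors, as deposited. Per the submitters' processing notes, Trim Galore, TopHat, featureCounts, DESeq2 and hg19 were used; the sources used here give no versions and no strand setting. Of 23368 rows per file 28 had dates in place of gene names and were left out (0.208% to 0.276% of counts). The AdGFP columns of experiment 2 were matched to its empty virus samples, the one other virus group there; libraries A and B are names without pairing. Log2(value + 1) was tested with limma 3.58.1 in R 4.3.3, with a variance trend, for genes at 10 or more in at least 2 libraries, in 1 fit per experiment. The 36 genes and further lists, read under older symbols such as PKM2, were chosen with earlier results of these data known. Library values are given for members called with a log2 change of at least 1 or with non-overlapping isozyme ratios, and further genes by smallest adjusted p. Alternatives used edgeR 4.0.16 and DESeq2 1.42.0 on whole reads recovered from experiments 2 and 3, where 100% of values were whole within 1e-06 of a read; edgeR called 2070 genes in experiment 2 and 4139 in control shRNA cells given that virus. The replicates were separate clones or infections of 1 cell line.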

Additional observations from a re-analysis of the deposited data

Results flagged for a closer look

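The effect of the PRH virus differed between the libraries labelled NOTCH3 shRNA and the control shRNA libraries for 7 of the 35 members tested, against 8.39% of all genes, by the interaction of virus and shRNA in limma with Benjamini-Hochberg adjustment. The log2 effect was lower in the labelled NOTCH3 libraries by -2.05 for SLC16A3 (adjusted p = 0.0024), -1.34 for SLC2A1 (adjusted p = 0.0018), -3.18 for CA12 (adjusted p = 0.00682), -0.74 for PFKL (adjusted p = 0.0315) and -0.48 for GPI (adjusted p = 0.0444). It was higher by 0.88 for EGLN1 (adjusted p = 0.0216) and 0.93 for ADM (adjusted p = 0.0221). Over 15 alternatives the calls of SLC16A3, SLC2A1 and CA12 were kept in each, while that of GPI was lost in 12, those of PFKL and EGLN1 in 7 and that of ADM in 6. With the PRH virus HHEX RNA was lower in the labelled NOTCH3 libraries than in the control shRNA libraries, and its part in these differences was not tested.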

How the results depend on the processing

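Of 65 calls of members, 46 held under every alternative run and 19 were lost under at least 1; among 796 alternative values 706 kept the call, 90 lost it and 0 changed sign. Without a variance trend 3 members were called in experiment 2, 6 for the PRH virus in control shRNA cells and 3 in the interaction; over all genes the counts were 758 against 2073, 2730 against 4282 and 351 against 1329, and 82 against 350 for the virus in labelled NOTCH3 libraries. DESeq2 called 9 members in experiment 2, 4 for the virus in labelled NOTCH3 libraries and 11 in the interaction, and over all genes 1096 and 2212 in the latter 2; edgeR called 1 for the virus in labelled NOTCH3 libraries. With only the 4 libraries of that comparison 3 genes were called. Leaving out single libraries gave 1 to 2 members for the knockdown (51 to 607 genes), 4 to 8 in experiment 2 (1278 to 2140 genes), 6 to 11 for the virus in control shRNA cells (2291 to 2958 genes), 0 in labelled NOTCH3 libraries (1 to 405 genes) and 3 to 6 in the interaction (500 to 1187 genes). Where a group was left with 1 library, it was assumed to vary like the others. The clones of experiment 1 share a number only (r = 0.58 between deviations, 14511 genes); with the replicate block 1 member, SLC2A3, and 10 genes were called. No paired analysis was possible because the columns of experiments 2 and 3 carry no replicate number. Equal totals moved the median of all genes in the knockdown from -0.07 to 0.03. Count models and TMM scaling were not run for experiment 1, where whole reads could not be recovered. The cause of these shifts was not tested.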

Other observations

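Further metabolic lists were read between the shRNA groups of experiment 3, where 51.9% of all genes were called with the empty virus; the limits given for the labelled NOTCH3 libraries hold here. With the empty virus 4 of 8 pentose phosphate genes were higher in labelled NOTCH3 libraries and 3 lower (87.5%). PGD, a dehydrogenase of that route, stood at 23539.8 and 25184 normalised counts against 10263 and 11374 (1.17 ± 0.09, adjusted p = 6.01e-06). Of 12 genes of pyruvate entry to mitochondria 8 were higher and 1 lower (75.0%). The phosphatase PDP1 stood at 11631 and 9606 against 1521 and 1473 (2.82 ± 0.13), and the kinase PDK2 at 426 and 419.6 against 676 and 674 (-0.68 ± 0.15). FBP1, a gluconeogenic phosphatase, stood at 1412 and 1299.7 against 0 and 0, and passed the filter on low values only through the labelled NOTCH3 libraries. Of 16 citric acid cycle genes 5 were higher and 4 lower (56.25%), near the share of all genes.

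With the PRH virus PDK2 was called higher in experiment 2, in control shRNA cells and in labelled NOTCH3 libraries (1.08 ± 0.15, 1.32 ± 0.15 and 1.02 ± 0.15). It stood at 355 and 308 with the empty virus and 751 and 653 with the PRH virus in experiment 2, at 676 and 674 against 1667 and 1709.8 in control shRNA cells, and at 426 and 419.6 against 858 and 863 in labelled NOTCH3 libraries. Of 16 citric acid cycle genes none was called in experiment 2 with limma, where 1 had an unadjusted p under 0.05, and 2 fell in control shRNA cells. In the knockdown no gene of these lists was called.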
